A study of Mus musculus with 4 samples.

Results

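The genes that write, copy, remove and read DNA methylation were followed in MMTV-Myc cells. These are mouse mammary tumour cells named for a Myc transgene that the MMTV promoter drives in mammary epithelium. The 9 genes were chosen by symbol: the methyltransferases Dnmt1, Dnmt3a and Dnmt3b, the hemimethylated DNA binding factors Uhrf1 and Uhrf2, the dioxygenases Tet1, Tet2 and Tet3, and the methyl-CpG reader Mbd1. All 9 had a row of their own among the 22440 rows of the mammosphere table, and 8 of them among the 11708 rows of the Cbx8 knockdown table, where Tet1 had no row. Polyadenylated RNA was sequenced from 4 libraries, 1 per group. Mammosphere cells (day 20, labelled wild type) had been kept as floating clusters with EGF, bFGF and a supplement, and were set against bulk cells (day 0, labelled wild type) grown with serum and insulin. Cbx8 knockdown cells carried the short hairpin RNA (shRNA) sh68 against Cbx8, which encodes a Polycomb chromodomain protein. They were set against cells labelled wild type with a control shRNA, named shLuc in one place and shScr in another. Hairpins came from lentivirus and cells were held under puromycin, and the knockdown rests on 1 hairpin. With no replicates there is no estimate of biological spread, no test, and no p-value apart from those in the authors' deposited tables.

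In mammals, DNA methylation sits mostly on the cytosine of CpG pairs. After replication, Uhrf1 binds hemimethylated CpG through its SRA domain and brings Dnmt1 to copy the mark to the new strand, whereas Dnmt3a and Dnmt3b place it on unmethylated DNA. TET enzymes oxidise the methyl group, using iron and 2-oxoglutarate, which leads to its loss by dilution or by base excision repair. Dnmt1 and Uhrf1 are known as genes of dividing cells, so their transcripts are usually read beside those of the replication machinery.

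Levels are the deposited FPKM values, which are divided by transcript length and by library size. Differences are given as plain ratios and as log2((FPKM + 1)/(FPKM + 1)), which understates differences of low genes. The tables came from separate runs, so levels are not compared between them. The Cbx8 transcript was at 1.23 FPKM in the knockdown library, against 4.74 FPKM in the control library, 3.84-fold lower as a plain ratio. Its q there was 0.385 in the authors' deposited table, so the targeted gene itself was not below 0.05. Cbx8 was at 1.48 FPKM in mammospheres, against 3.46 FPKM in bulk cells, and was not tested by the authors in that comparison. Of the mammary keratins, the luminal Krt8, Krt18 and Krt19 were above 1 FPKM in all 4 libraries, with Krt18 at 58.2 FPKM in mammospheres and 570 FPKM in bulk cells, and at 256 FPKM in the knockdown and 261 FPKM in the control library. Krt8 was at 5.14 FPKM in mammospheres and 334 FPKM in bulk cells, whereas Krt19 was at 9.65 and 9.08 FPKM in the same order. The basal Krt5, Krt14 and Krt17 were at 0.0046, 0.0534 and 0.0316 FPKM in mammospheres and at 0.875, 18.8 and 1.46 FPKM in bulk cells, and Krt5 and Krt17 had no row in the shRNA table. Of the 10 luminal genes used here, Epcam and Cdh1 were at 0.0908 and 0.0135 FPKM in mammospheres. They were at 1.06 and 1.04 FPKM in bulk cells, and both were below 0.4 FPKM in the shRNA libraries. Gata3 was at 18.5 FPKM in mammospheres and 24.98 FPKM in bulk cells, and Cldn3 at 0.276 and 1.77 FPKM. In the knockdown and control libraries Gata3 was at 41.6 and 39.8 FPKM, and Cldn3 at 24.9 and 22.8 FPKM. Of the 8 with 1 FPKM or more in mammospheres or bulk cells, 7 had negative log2 changes and 1 a positive one.

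The maintenance pair Dnmt1 and Uhrf1 was more than 2-fold higher in mammospheres than in bulk cells, and no other writer, eraser or reader differed by that much. Dnmt1, the maintenance methyltransferase (mm9 chromosome 9, 20711649 to 20764332), was at 51.2 FPKM in mammospheres, against 23.8 FPKM in bulk cells. This was 2.16-fold higher as a plain ratio and a log2 change of 1.08, with q = 3.41e-11 in the authors' deposited table. Uhrf1 (mm9 chromosome 17, 56442759 to 56462909) was at 55.3 FPKM in mammospheres, against 19.2 FPKM in bulk cells. It was 2.89-fold higher, with a log2 change of 1.48 and q = 4.96e-06 in the authors' deposited table. Of the 7 genes with 1 FPKM or more in either library, 2 were higher by 2-fold or more and 0 were lower by as much. Over the 11603 rows with that level, 3.54% were higher and 17.3% lower by this rule. The shares were 5.63% and 13.3% with changes centred on the median row, and 7.08% and 13.5% with equal upper quartiles. These scalings moved the median of all rows to −0.05 and 0.04, where it was −0.24 as deposited, and left both genes past 2-fold. The counts at 2-fold below use the deposited scaling and 1 FPKM added, and are to be read against these shares. Over the same rows 34.7% of log2 changes were positive as deposited, 46.7% when centred and 52.5% with equal upper quartiles. In the authors' deposited table, 3 of the 9 genes were tested, and the 2 with q under 0.05 were Dnmt1 and Uhrf1. There 1.73% of 4045 tested rows were higher at that limit and 10.2% lower. These q rest on 1 library per group and do not follow the size of the ratio. Mat2a, at 2.36-fold higher, had q = 0.171 in the same table.

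**Figure D1:**
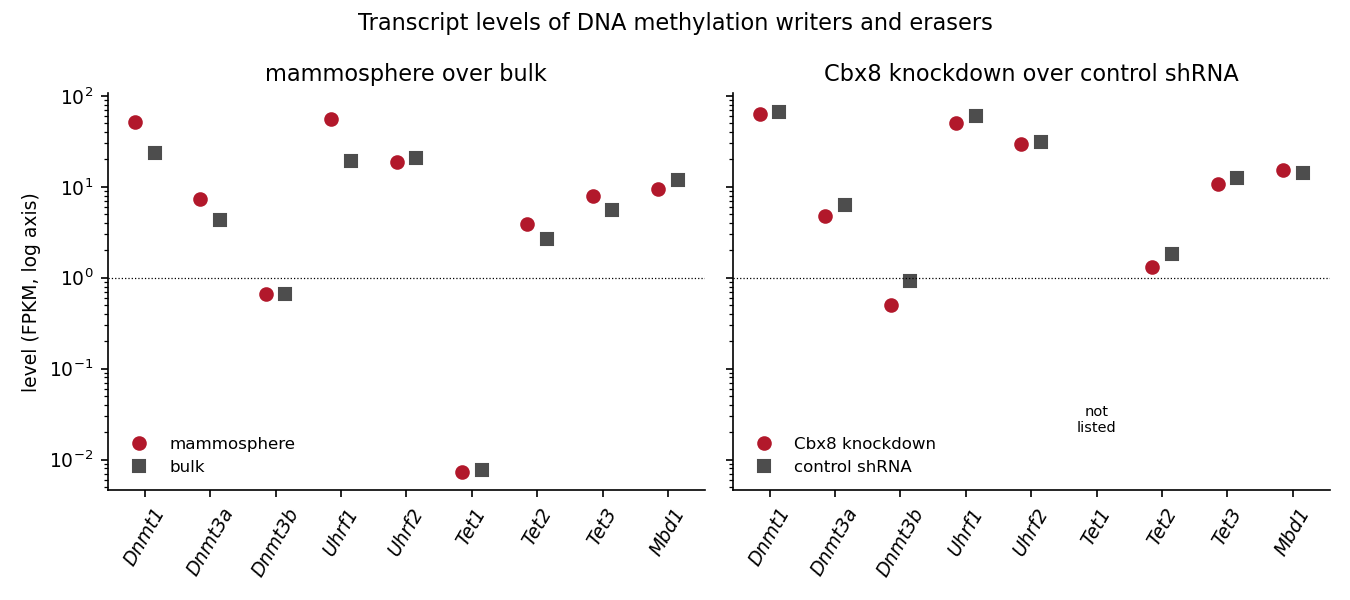
Level of each gene in FPKM on a log axis, in mammospheres (red circles) and bulk cells (grey squares) on the left, and in Cbx8 knockdown (red circles) and control shRNA cells (grey squares) on the right. Each point is 1 library, the dotted line is at 1 FPKM, and the widest gaps on the left are for Uhrf1 (55.3 and 19.2 FPKM) and Dnmt1 (51.2 and 23.8 FPKM).

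Markers of other cell types differed between the same 2 libraries. All 10 leukocyte genes were at least 2-fold lower in mammospheres, with a summed level of 0.859 FPKM there and 392 FPKM in bulk cells, and Tyrobp and Fcer1g were listed at 0 in mammospheres. With 1 FPKM added, 8 of 10 fibroblast genes were lower by that much, and Lum, Thy1 and Postn were at 0 in mammospheres. Fibroblast genes summed to 6.09 FPKM in mammospheres, most of it Fbln1 at 5.05 FPKM, and to 359 FPKM in bulk cells. The 6 endothelial genes summed to 6.03 FPKM in mammospheres and 19.9 FPKM in bulk cells, with Tek and Emcn at 0 in mammospheres. Flt1 made up most of both endothelial sums, at 5.79 FPKM in mammospheres and 13.8 FPKM in bulk cells. Pecam1 was at 0.0593 and 3.54 FPKM in the same order, and Cdh5 at 0.0881 and 1.502 FPKM. These 3 endothelial genes were each at least 2-fold lower with 1 FPKM added. Luminal genes summed to 92.6 FPKM in mammospheres and 959 FPKM in bulk cells, and basal genes to 6.77 and 53.6 FPKM, with Trp63 at 0 in mammospheres. The part of these in the differences of Dnmt1, Uhrf1 and the other genes here was not tested, and fewer cells of a type cannot be told apart from less RNA per cell. In the shRNA libraries 1 of the 10 leukocyte genes had a row, Coro1a, at 0.465 FPKM in the knockdown and 0.481 FPKM in the control library. Fibroblast genes with a row there, 4 of 10, summed to 3.44 FPKM in the knockdown and 7.51 FPKM in the control library. Flt1 was the 1 endothelial gene with a row, at 8.86 and 14.2 FPKM in the same order. The basal keratin Krt14 was at 10.5 FPKM in the knockdown and 1.09 FPKM in the control library.

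For each of the 2 genes past 2-fold, 1 promoter window is shown. It was picked after the search because it holds letters that E2F factors, regulators of replication genes, are known to bind. Windows are those of RefSeq (GRCm38.p6), 250 bases before to 50 bases after an annotated start, and were found for 8 of the 9 genes (Mbd1 was not among them). For Dnmt1 the window is chr9:20952574-20952873 on the minus strand, 1 of its 3, and for Uhrf1 it is chr17:56304063-56304362 on the plus strand, 1 of its 2. Both are written 5′ to 3′ along the gene, with E2F letters in capitals.
Dnmt1: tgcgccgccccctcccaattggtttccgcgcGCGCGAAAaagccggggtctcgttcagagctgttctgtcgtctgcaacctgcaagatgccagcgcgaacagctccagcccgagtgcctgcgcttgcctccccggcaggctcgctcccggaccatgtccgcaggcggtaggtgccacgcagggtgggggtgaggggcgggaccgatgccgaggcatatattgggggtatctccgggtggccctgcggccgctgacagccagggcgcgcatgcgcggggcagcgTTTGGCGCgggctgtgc
Uhrf1: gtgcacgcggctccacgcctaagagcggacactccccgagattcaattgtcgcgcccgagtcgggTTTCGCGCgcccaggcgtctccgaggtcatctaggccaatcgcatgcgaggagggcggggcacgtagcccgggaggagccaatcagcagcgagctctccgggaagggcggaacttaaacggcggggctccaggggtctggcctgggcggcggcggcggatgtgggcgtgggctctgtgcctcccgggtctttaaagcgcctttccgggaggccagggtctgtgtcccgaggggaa
The letters searched, on both strands, were TTTCGCGC, TTTGGCGC, TTTCCCGC and TTTGCCGC. Dnmt1 had GCGCGAAA (the first of these on the other strand) at bases 32 to 39 of its window and TTTGGCGC at bases 284 to 291. Uhrf1 had TTTCGCGC at bases 66 to 73. None of these matches overlapped a match to the other motifs searched. The windows of Dnmt3a, Dnmt3b, Uhrf2, Tet1, Tet2 and Tet3 held no such letters.

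Such letters occurred in 2.26% of all 32851 windows, and in 5.15% of the 8701 windows with 20 or more CpG pairs. The Dnmt1 and Uhrf1 windows shown had 33 CpG pairs each, against a median of 7 over all windows. The Tet2 window had 57, the most among the members, and that of Tet1 had 17. The Dnmt1 windows not shown had 2 and 12, and the Uhrf1 window not shown had 12. Of 405 such genes with 1 FPKM or more in either library, 3.21% were at least 2-fold higher, against 3.43% of 7785 genes without them, and the medians of the log2 change were −0.12 and −0.23. In the knockdown the medians were −0.03 over 400 such genes and −0.01 over 7344 others. A match describes letters, not binding, and which start site these cells used was not analysed here. Sp letters (GGGCGG) were in at least 1 window of all 8 genes and in 35.7% of all windows. NF-Y letters (CCAAT) were in windows of Dnmt1, Uhrf1 and Tet3 and in 37.4% of all windows, and the Myc E-box (CACGTG) in a window of Dnmt3a and in 7.15% of all windows.

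Dnmt1 and Uhrf1 differed more than any of 27 DNA replication genes set beside them. The 27 are a chosen list, not all replication genes. Outside the list, Wdhd1 and Exo1 had log2 changes of 1.47 and 1.41, wider than that of Dnmt1 at 1.08. Of those 27, 25 had positive log2 changes in mammospheres, where 34.7% of all rows had. With 1 FPKM added 0 reached 2-fold, and by the plain ratio Ccne2 did, at 2.10-fold. Their median was 0.56, where the median of all 11603 rows was −0.24, and they ranged between −0.24 for the clamp loader subunit Rfc3 and 0.91 for Chaf1a. Chaf1a, a subunit of the replication-coupled chromatin assembly factor, was at 19.5 FPKM in mammospheres and 9.91 FPKM in bulk cells. The cyclin Ccne2 was at 8.16 FPKM in mammospheres and 3.88 FPKM in bulk cells. Rrm2, a ribonucleotide reductase subunit, was at 78.4 FPKM in mammospheres and 42.0 FPKM in bulk cells, and the thymidine kinase Tk1 at 36.1 and 19.8 FPKM in the same order. In the authors' deposited table q was 0.05 or above for every one of the 27 that was tested.

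The de novo methyltransferases were low in both libraries. Dnmt3a (mm9 chromosome 12, 3806979 to 3914443) was at 7.32 FPKM in mammospheres and 4.35 FPKM in bulk cells, 1.68-fold higher as a plain ratio, with a log2 change of 0.64. With Dnmt1 and Uhrf1 it made 3 of 7 genes that were at least 1.5-fold higher, where 9.86% of rows were. Dnmt3b (mm9 chromosome 2, 153475189 to 153513466) was at 0.655 FPKM in mammospheres and 0.67 FPKM in bulk cells, a ratio of 0.977, and its log2 change of −0.01 turned to 0.17 when centred. Neither gene was tested by the authors, whose untested rows reached no more than 18.5 FPKM in mammospheres and 25.2 FPKM in bulk cells. Dnmt1 held 86.5% of the summed methyltransferase FPKM in mammospheres and 82.6% in bulk cells. The catalytically inactive cofactor Dnmt3l was at 1.25 FPKM in mammospheres and 0.949 FPKM in bulk cells.

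Uhrf2, a paralogue of Uhrf1 with the same domains, had a ratio between the libraries well under 2-fold. Uhrf2 (mm9 chromosome 19, 30105002 to 30168214) was at 18.7 FPKM in mammospheres and 20.8 FPKM in bulk cells, with q = 0.959 in the authors' deposited table. Its log2 change was −0.15 as deposited, 0.04 when centred on the median row and 0.16 with equal upper quartiles. The ratio of Uhrf1 to Uhrf2, which no scaling between libraries enters, was 2.96 in mammospheres and 0.921 in bulk cells. Uhrf1 thus held 74.7% of the pair's FPKM in mammospheres and 47.9% in bulk cells. Uhrf1 was also first of the 9 genes by level in mammospheres but came after Dnmt1 and Uhrf2 in bulk cells. These 3 levels in bulk cells lay between 19.2 and 23.8 FPKM, and without replicates their order cannot be set against any spread.

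**Figure D2:**
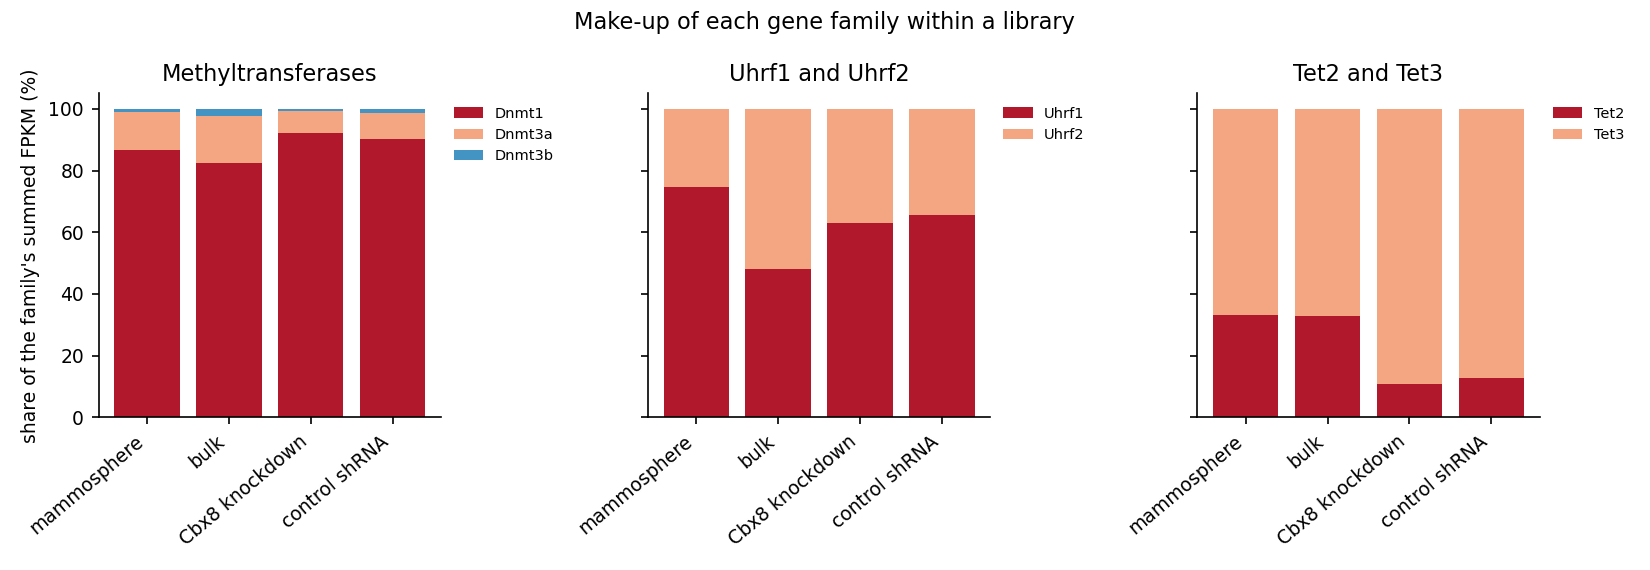
Share of each family's summed FPKM held by its members, in percent, within each of the 4 libraries (mammosphere, bulk, Cbx8 knockdown, control shRNA). Uhrf1 held 74.7% of the Uhrf pair in mammospheres and 47.9% in bulk cells, whereas Tet2 held 33.3% and 32.7% of the Tet2 and Tet3 sum in these libraries.

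Among the erasers, Tet3 was the most abundant. Tet3 (mm9 chromosome 6, 83312367 to 83391672) was at 7.83 FPKM in mammospheres and 5.51 FPKM in bulk cells, a log2 change of 0.44. Tet2 (mm9 chromosome 3, 133126640 to 133207354) was at 3.91 FPKM in mammospheres and 2.68 FPKM in bulk cells, a log2 change of 0.42. The ratio of Tet3 to Tet2 was 2.00 in mammospheres and 2.06 in bulk cells. Tet1 (mm9 chromosome 10, 62267317 to 62342762), the TET enzyme best known from embryonic stem cells, was at 0.0073 FPKM in mammospheres and 0.00772 FPKM in bulk cells, the lowest level of the 9 genes in both. The authors tested no TET gene here. The summed methyltransferase FPKM was 5.04 times that of Tet2 and Tet3 in mammospheres and 3.52 times in bulk cells.

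No reader reached 2-fold. Mbd1, which binds methylated CpG through its MBD domain, was at 9.38 FPKM in mammospheres and 11.8 FPKM in bulk cells, a log2 change of −0.30. Of 9 other methyl-CpG binding proteins, 4 had positive and 5 negative changes, 0 reached 2-fold, and the median was −0.13 as deposited, 0.05 when centred and 0.12 with equal upper quartiles. It was −0.45 over those with 5 FPKM or more and −0.66 over those the authors tested. Mbd2, a subunit of the NuRD repressor complex, was at 16.5 FPKM in mammospheres and 30.7 FPKM in bulk cells, with q = 0.406 in the authors' deposited table. Mbd6 was at 9.47 FPKM in mammospheres and 15.5 FPKM in bulk cells. Zbtb38, a zinc finger reader whose row also holds E030011O05Rik, was at 20.7 and 33.3 FPKM in the same order. Mbd4, a thymine glycosylase, was at 2.69 FPKM in mammospheres and 1.62 FPKM in bulk cells.

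**Figure D3:**
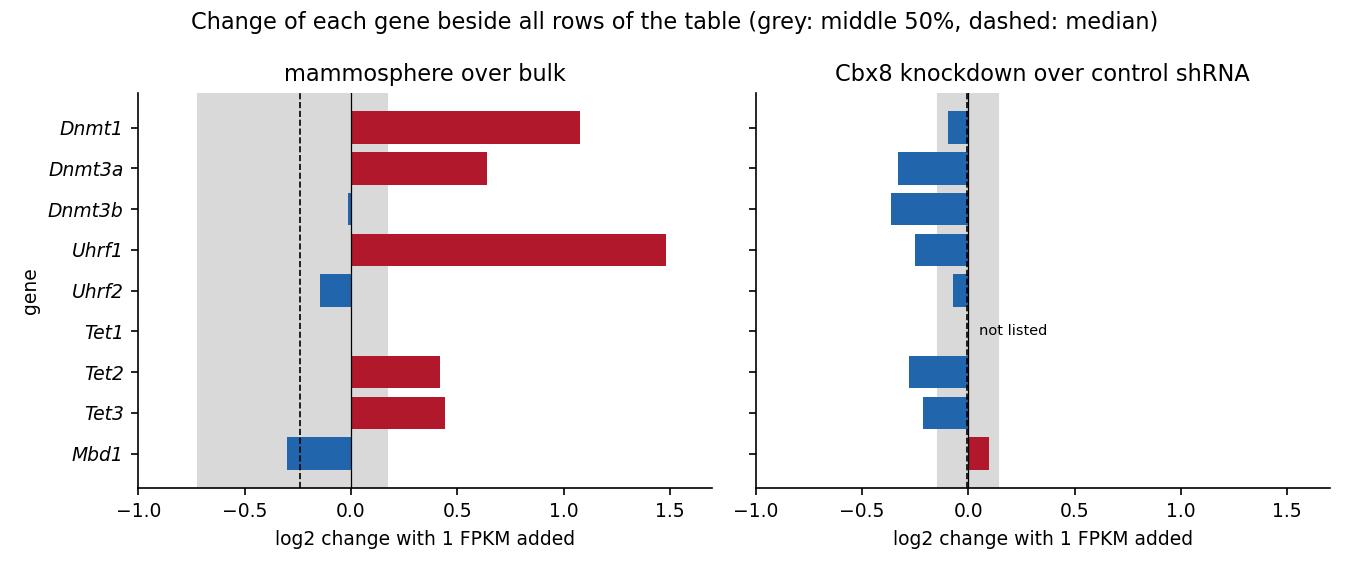
Bars give each gene's log2 change with 1 FPKM added, mammosphere over bulk on the left and Cbx8 knockdown over control on the right, 1 library per group. Grey bands span the middle 50% of all rows with 1 FPKM or more (−0.72 to 0.17 on the left, −0.14 to 0.14 on the right), and dashed lines are their medians (−0.24 and −0.01).

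Proteins that work with the methyltransferases showed no 2-fold difference. Of 17 with 1 FPKM or more, 10 had positive and 7 negative changes, with a median of 0.18, where 34.7% of all rows were positive. Cdca7, a partner of the remodeller Hells, was at 33.1 FPKM in mammospheres and 17.5 FPKM in bulk cells. The histone H3 lysine 9 methyltransferase Ehmt1 was at 24.6 FPKM in mammospheres and 14.2 FPKM in bulk cells. The chromodomain protein Cbx1 was at 22.3 and 15.5 FPKM in the same order. Usp7, a deubiquitinase known to bind Dnmt1 and Uhrf1, was at 27.4 FPKM in mammospheres and 38.3 FPKM in bulk cells. Of 5 measured CXXC proteins, which bind unmethylated CpG, 4 were positive and 0 reached 2-fold. Kdm2b was at 7.88 FPKM in mammospheres and 4.96 FPKM in bulk cells, Cxxc5 at 12.5 and 8.15 FPKM, Cxxc1 at 13.8 and 17.9 FPKM, and Kdm2a at 17.1 and 14.3 FPKM, each in that order.

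The methyl donor list and the TET co-substrate and cofactor list held 3 genes past 2-fold, all higher in mammospheres, as were 3.54% of all rows. Mat2a, which makes S-adenosylmethionine, was at 221 FPKM in mammospheres and 93.7 FPKM in bulk cells, a log2 change of 1.23, with q = 0.171 in the authors' deposited table. It was the 1 of 9 measured methyl donor genes past 2-fold, and their median was 0.16. Mtr, the methionine synthase, was at 11.1 FPKM in mammospheres and 6.70 FPKM in bulk cells, and the adenosine kinase Adk at 28.0 and 39.1 FPKM in the same order. Idh1, the cytosolic isocitrate dehydrogenase that makes 2-oxoglutarate, was at 134 FPKM in mammospheres and 48.6 FPKM in bulk cells. Its log2 change was 1.45 and its q = 0.0333 in the authors' deposited table. Ogt, a glycosyltransferase known to bind TET proteins, was at 50.3 FPKM in mammospheres and 24.0 FPKM in bulk cells. Its q was 0.254 in the authors' deposited table. Idh1 and Ogt were the 2 of 12 genes of that list past 2-fold, and the list's median was 0.19. Fh1, the fumarate hydratase, was at 82.8 FPKM in mammospheres and 66.1 FPKM in bulk cells.

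The widest differences among companion genes were in the Gadd45 family, stress-induced genes that have been linked to repair-based demethylation. Gadd45b was at 3.56 FPKM in mammospheres and 150.4 FPKM in bulk cells, a log2 change of −5.05. Gadd45g was at 8.53 FPKM in mammospheres and 67.0 FPKM in bulk cells, and Gadd45a at 21.9 and 73.2 FPKM. The 3 had q = 4.73e-13, q = 1.45e-05 and q = 0.0189 in the authors' deposited table, and were the 3 of 15 genes for removal of oxidised or deaminated bases past 2-fold with 1 FPKM added. Of all rows, 17.3% were lower by that much, so the count for the list is near the share of all rows. The median of those 15 was 0.05, and it was −0.54 over those with 5 FPKM or more and −1.69 over those the authors tested. The cytidine deaminase Apobec1 was at 1.7 FPKM in mammospheres and 4.27 FPKM in bulk cells, 2.51-fold lower as a plain ratio. Tdg, the glycosylase that excises oxidised methylcytosine, had a log2 change of 0.06.

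**Figure D4:**
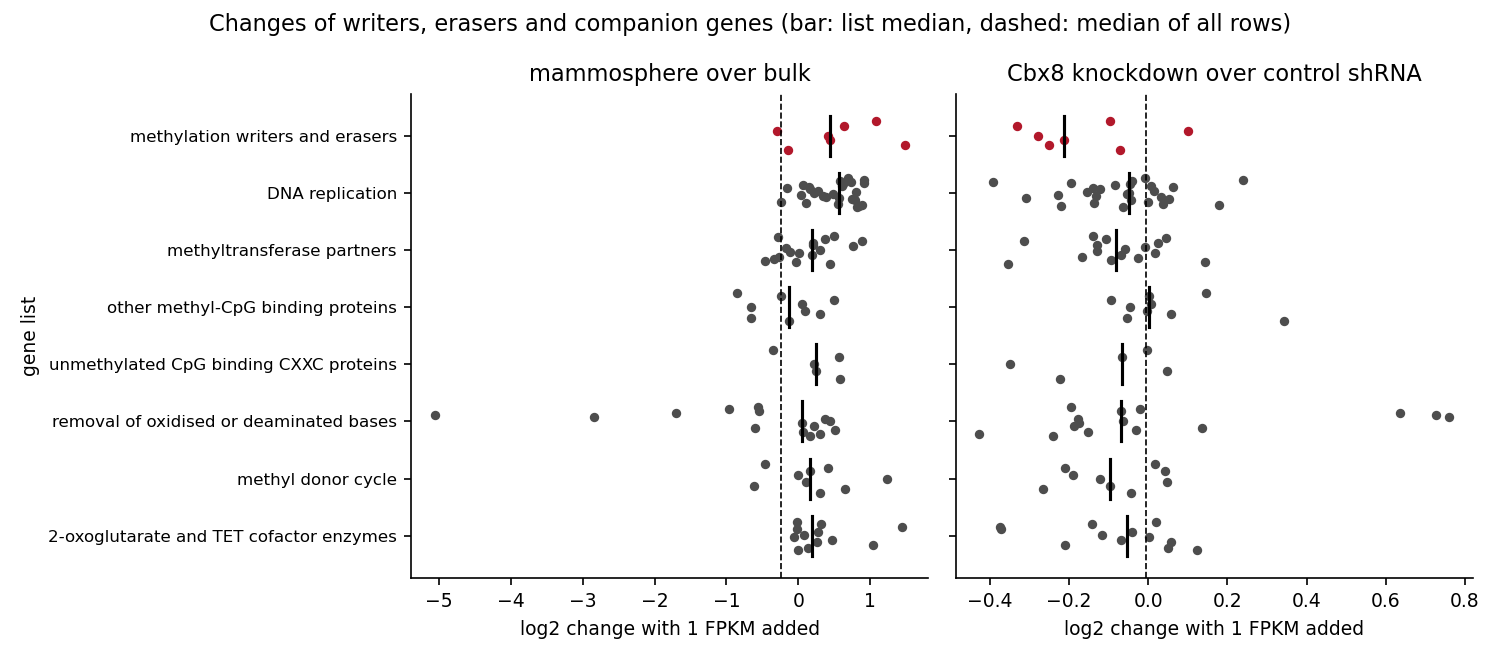
Each point is the log2 change of 1 gene with 1 FPKM added, by gene list, mammosphere over bulk on the left and Cbx8 knockdown over control on the right (the axes differ). Bars are list medians and dashed lines the medians of all rows. On the left, Dnmt1 (1.08) and Uhrf1 (1.48) lie right of every gene in the DNA replication list. The 3 points farthest left there among removal genes are Gadd45b, Gadd45g and Gadd45a.

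Of the 9 genes, 8 had a row in the Cbx8 knockdown comparison. None of the 7 with 1 FPKM or more reached 2-fold, or 1.5-fold, with 1 FPKM added, where 0.749% of 10685 rows reached 2-fold and 4.28% reached 1.5-fold in either direction. Of these 7, 6 had negative log2 changes, as had 51.2% of all rows. Their median was −0.21, where the median of all rows was −0.01. In the authors' deposited table the q of all 8 listed genes was 0.999, and 0.205% of 11708 rows were below 0.05.

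Dnmt1 was at 62.9 FPKM in the knockdown and 67.4 FPKM in the control library, a log2 change of −0.10. Uhrf1 was at 49.9 FPKM in the knockdown and 59.5 FPKM in the control library, a log2 change of −0.25. Both lay within the range of the 27 replication genes, −0.39 (the licensing factor Cdt1) to 0.24 (Ccne2), whose median was −0.05. Cdt1 was at 35.7 FPKM in the knockdown and 47.1 FPKM in the control library, and the polymerase subunit Pola1 at 14.8 and 18.6 FPKM. Ccne2 was at 30.2 FPKM in the knockdown and 25.4 FPKM in the control library, and the helicase subunit Mcm6 at 78.9 and 92.6 FPKM. Dnmt1 was first by level and Uhrf1 second in both libraries.

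Dnmt3a was at 4.81 FPKM in the knockdown and 6.31 FPKM in the control library, a log2 change of −0.33. Dnmt3b was at 0.499 FPKM in the knockdown and 0.926 FPKM in the control library, 1.86-fold lower as a plain ratio, the widest ratio of the 8 genes. It was below 1 FPKM in all 4 libraries, and the authors' deposited table gave p = 0.124. Dnmt1 held 92.2% of the summed methyltransferase FPKM in the knockdown and 90.3% in the control library.

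Uhrf2 was at 29.5 FPKM in the knockdown and 31.0 FPKM in the control library. The ratio of Uhrf1 to Uhrf2 was 1.69 in the knockdown and 1.92 in the control library. Tet2 was at 1.31 FPKM in the knockdown and 1.80 FPKM in the control library, a log2 change of −0.28, and Tet3 at 10.7 FPKM in the knockdown and 12.5 FPKM in the control library, a log2 change of −0.21. The ratio of Tet3 to Tet2 was 8.13 in the knockdown and 6.94 in the control library. Tet1 had no row in this table, which lists no value of 0 in either library. Mbd1 was at 15.1 FPKM in the knockdown and 14.1 FPKM in the control library, the 1 positive change, 0.10.

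No companion gene of the methylation lists reached 2-fold in the knockdown. The other methyl-CpG binding proteins had 5 positive and 4 negative changes (median 0.003, or −0.03 with equal upper quartiles), the largest for Zbtb4 (0.34), with Mbd2 at 67.4 FPKM in the knockdown and 60.8 FPKM in the control library. Methyltransferase partners had 4 positive and 12 negative changes (median −0.08), with the imprint protector Zfp57 at 14.2 FPKM in the knockdown and 18.4 FPKM in the control library and Cdca7 at 52.6 and 65.6 FPKM. The CXXC proteins had 1 positive and 4 negative changes (median −0.07), with Fbxl19 at 15.4 FPKM in the knockdown and 19.9 FPKM in the control library. Methyl donor genes had 3 positive and 6 negative changes (median −0.10), with Mtr at 9.85 and 12.0 FPKM in the same order. TET co-substrate genes had 5 positive and 7 negative changes (median −0.05), with Idh1 at 90.4 FPKM in the knockdown and 117 FPKM in the control library, and the mitochondrial Idh2 at 93.5 and 121 FPKM.

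The Gadd45 genes were higher in the knockdown library, within 2-fold. Gadd45g was at 45.3 FPKM in the knockdown and 26.3 FPKM in the control library, a log2 change of 0.76. Gadd45b was at 16.0 FPKM in the knockdown and 9.27 FPKM in the control library, and Gadd45a at 24.8 and 15.6 FPKM. Their q lay at 0.947 or above in the authors' deposited table. The other genes of that list, among them the uracil glycosylase Ung at 8.46 FPKM in the knockdown and 11.7 FPKM in the control library, brought its median to −0.07.

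Genes most like the members were sought among 7977 genes with 5 FPKM or more in a library of each table, by the distance between pairs of log2 changes (mammosphere over bulk, knockdown over control). Wdhd1 was nearest to Uhrf1, with changes of 1.47 and −0.23, where Uhrf1 had 1.48 and −0.25. Exo1 (1.41 and −0.20) and Tgfa (1.57 and −0.23) followed. For Dnmt1, with 1.08 and −0.10, the nearest were Tanc1 (1.07 and −0.12), Shmt2 (1.05 and −0.10) and Kif20b (1.06 and −0.12). For Dnmt3b, the member with the widest knockdown change, with −0.01 and −0.36, they were Qser1 (−0.02 and −0.35), Idh2 (−0.02 and −0.37) and Fndc3a (−0.01 and −0.38). Dnmt3b was below 1 FPKM and its knockdown change was −0.78 with 0.1 FPKM added and −0.11 with 5 FPKM added, and the search was not run with these values. Likeness over 2 comparisons of 4 libraries describes these values only.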

How the data were processed

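Polyadenylated RNA of 4 libraries (single-end reads) was processed by the submitters. Cuffdiff (version listed as 0.0.7), Cufflinks 1.3.0, TopHat 1.4.0 and FastQC 0.10.0 are named with build mm9, per the submitters' processing notes. The authors deposited 2 Cuffdiff tables with FPKM per gene and, beside them, Cuffdiff p-values and q-values. Their settings are not stated in what was used here. No counts are given and read numbers could not be recovered from low FPKM, so depth is unknown and no interval was computed.

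Rows were matched by symbol, the row of highest mean FPKM being used. Counts took rows with 1 FPKM or more in either library whose status was not FAIL or HIDATA (29 and 3 rows of the mammosphere table), with 1 FPKM added before log2 and a limit of 2-fold. The knockdown table holds 15 rows with no test statistic; without them 0.656% of rows reached 2-fold. The named genes were the 9 members, up to 4 genes of largest absolute change per list and comparison, and the 3 genes most like Uhrf1, Dnmt1 and Dnmt3b. Of these, 2 are not reported here. Tdg, Rfc3, Dnmt3l and the markers were added after their values were seen. The members and lists were chosen with earlier results of these data known. Promoter windows are RefSeq's, on GRCm38.p6. Counting was tested on simulated data with planted changes well past the limit. That check does not cover genes near the limit or the spread between real libraries. Alternatives were pseudocounts of 0.1 and 5 FPKM, 2 other scalings, summed rows, other FPKM minimums, tested rows only, a 1.5-fold limit and the authors' q under 0.05. Computation used Python 3.11.15, numpy 2.4.6 and pandas 2.3.3.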

Additional observations from a re-analysis of the deposited data

How the results depend on the processing

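No paired analysis was possible because each group has 1 library, and for the same reason none could be left out. The 2 genes at least 2-fold higher in mammospheres became 1 with a pseudocount of 5 FPKM, where Dnmt1 had a log2 change of 0.97. They stayed 2 under every other alternative that kept the 2-fold limit and under the authors' q, and became 3 at 1.5-fold. No count in the knockdown moved from 0. All rows in mammospheres had a median of −0.24, or −0.05 with changes centred on rows at 1 FPKM or more in both libraries and 0.04 with equal upper quartiles. Under these 2 scalings Dnmt1 was at 1.26 and 1.39 and Uhrf1 at 1.67 and 1.79, and the signs of Uhrf2 (0.04 and 0.16), Dnmt3b (0.17 and 0.12) and Tet1 (0.19 and 0.002) turned positive, whereas Mbd1 was negative under all 6 settings. With pseudocounts of 0.1 and 5 FPKM the higher share was 5.76% and 1.23%. In the knockdown, those pseudocounts gave 0.824% and 0.131% higher and 1.07% and 0.168% lower. Every listed member kept its sign in the knockdown under the 5 alternatives run on single genes. In mammospheres the median of the removal genes was −0.54 with a 5 FPKM minimum and −1.69 over tested rows only, and that of the other methyl-CpG binding proteins −0.45 and −0.66. Depth is unknown, so no counting error can be given for low genes such as Dnmt3b and Tet1.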

Other observations

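Germline genes known to be silenced by promoter methylation, such as Dazl, Ddx4 and Mael, were near or at 0. Of 18 listed, 17 had a row in the mammosphere table and 0 reached 1 FPKM in either library. They summed to 1.00 FPKM in mammospheres and 1.09 FPKM in bulk cells, and 11 were at 0 in mammospheres and 9 in bulk cells. The knockdown table listed 1 of them, the synaptonemal complex gene Sycp1, at 0.787 FPKM in the knockdown and 1.09 FPKM in the control library. Methylation itself was not measured here.

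E2F letters were in a promoter window of 10 of 22 DNA replication genes with a window, among them Mcm3, Cdc6 and Cdt1, and of 4 of 17 methyltransferase partners (Hells, Cdca7, Suv39h1 and Cbx3), where 2.61% of 27025 genes with a window had them. The methyl-CpG binding, CXXC, removal, methyl donor and TET co-substrate lists had 0 such genes, and the germline list had 2 of 18 (Sycp3 and Slc25a31). These genes were singled out after the windows had been searched.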
